A study of Bos indicus with 12 samples.

Results

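Molecular chaperones of the heat shock protein (HSP), DNAJ and CCT families were followed in blood RNA of 12 female Bos indicus cows. Members were taken by gene symbol, which gave 78 of the 26229 gene identifiers in the count table. They were 11 HSP70 and HSP110 genes, 3 HSP90 genes, the HSP60 gene HSPD1, 8 small HSP genes, 44 DNAJ genes, 9 CCT genes and 2 partners with HSP symbols, HSPBP1 and HSPBAP1. The chaperonin genes TCP1 and HSPE1 and the inducible HSP70 gene HSPA1A were not analysed here. The cows were Gir, a zebu dairy breed, or Shweta Kapila, an indigenous Indian breed, and were in the second or the third lactation. Within each breed 3 cows were classed as high yielding and 3 as low yielding from lactation records, so the 4 groups were Gir high, Gir low, Shweta Kapila high and Shweta Kapila low. The labels give no agent, ration, age or milk yield, and the class is the only treatment they name. Each library came from a separate cow.

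Chaperones bind unfolded or partly folded proteins and keep them from aggregating until they fold, reach another compartment or are degraded. HSP70 proteins do so in cycles of ATP hydrolysis that DNAJ proteins start, HSP110 proteins and HSPBP1 help to reset them by releasing nucleotide, and HSP90 takes over many clients such as kinases and receptors. HSP60 in the mitochondrion and the CCT ring in the cytosol enclose a client in a chamber, with actin and tubulin the best known clients of CCT, while small HSPs hold unfolded proteins without using ATP. The HSP70 and DNAJ families have members for the cytosol, the endoplasmic reticulum and the mitochondrion, and heat is known to raise many chaperone genes in blood cells.

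Total counts ran from 14.2 to 27.2 mega-counts per library, and levels are given as CPM, the scaled number of counts per mega-count. By library total alone, before that scaling, 10 counts stood for 0.704 CPM in Gir low 1, which had the fewest counts. In Shweta Kapila high 3, which had the most, they stood for 0.368 CPM. The 3 largest libraries, Shweta Kapila high 3, low 1 and low 2, also had the 3 highest shares of counts in a set of 37 identifiers with short numbers and no symbol (9.00%, 13.1% and 11.7%, against 4.54% to 8.70% in the other 9), and they stood apart from the rest in what follows. The labels call the sample peripheral blood mononuclear cells, while the RNA kit they name is a blood kit. Neutrophil markers were present, with 7 of 10 listed genes past the filter on low counts and a summed level of 1324 to 4334 CPM, as were platelet (6 of 7, 279 to 567 CPM) and T cell markers (10 of 10, 2218 to 5541 CPM), and no listed marker that was matched was at 0 in every library. In RNA of mixed cells, fewer cells of a type and less RNA per cell cannot be told apart.

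Chaperone genes held between 0.669% (Gir low 1, Wilson 95% interval 0.664% to 0.673%) and 1.17% (Shweta Kapila low 1, 1.17% to 1.18%) of a library's counts. These intervals cover counting error only. Shweta Kapila low 2 followed with 1.14% and Shweta Kapila high 3 with 0.994%, and the other 9 libraries lay between 0.669% and 0.880%. A few genes supplied most of these counts. HSPA8, the constitutive cytosolic HSP70, gave 24.4% of all chaperone counts, HSP90AB1 gave 11.7%, HSP90AA1 gave 11.1% and the endoplasmic reticulum HSP90, HSP90B1, gave 6.38%. These shares are not corrected for transcript length, so they say how the reads were distributed and not which transcript was most abundant.

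Of the 78 members, 71 passed the filter. DNAJB8 was at 0 in all 12 libraries, and DNAJB7, DNAJC5B, DNAJC5G, HSPA12A, HSPA4L and HSPB3 were under the filter. The coefficient of variation over the 12 cows had a median of 31.3% among the 71, beside 34.6% among all 15420 genes past the filter. It was lowest for DNAJC14 (6.16%), a membrane protein of the endoplasmic reticulum, DNAJB6 (6.88%), which suppresses protein aggregation, and the ring subunit CCT7 (7.71%). The small HSP genes were the most uneven family, with a median of 79.5% and a range from 31.5% for HSPB1 to 121% for HSPB7. Medians in the other families of 2 or more members were between 27.7% (CCT) and 35.4% (HSP70 and HSP110).

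**Figure D1:**
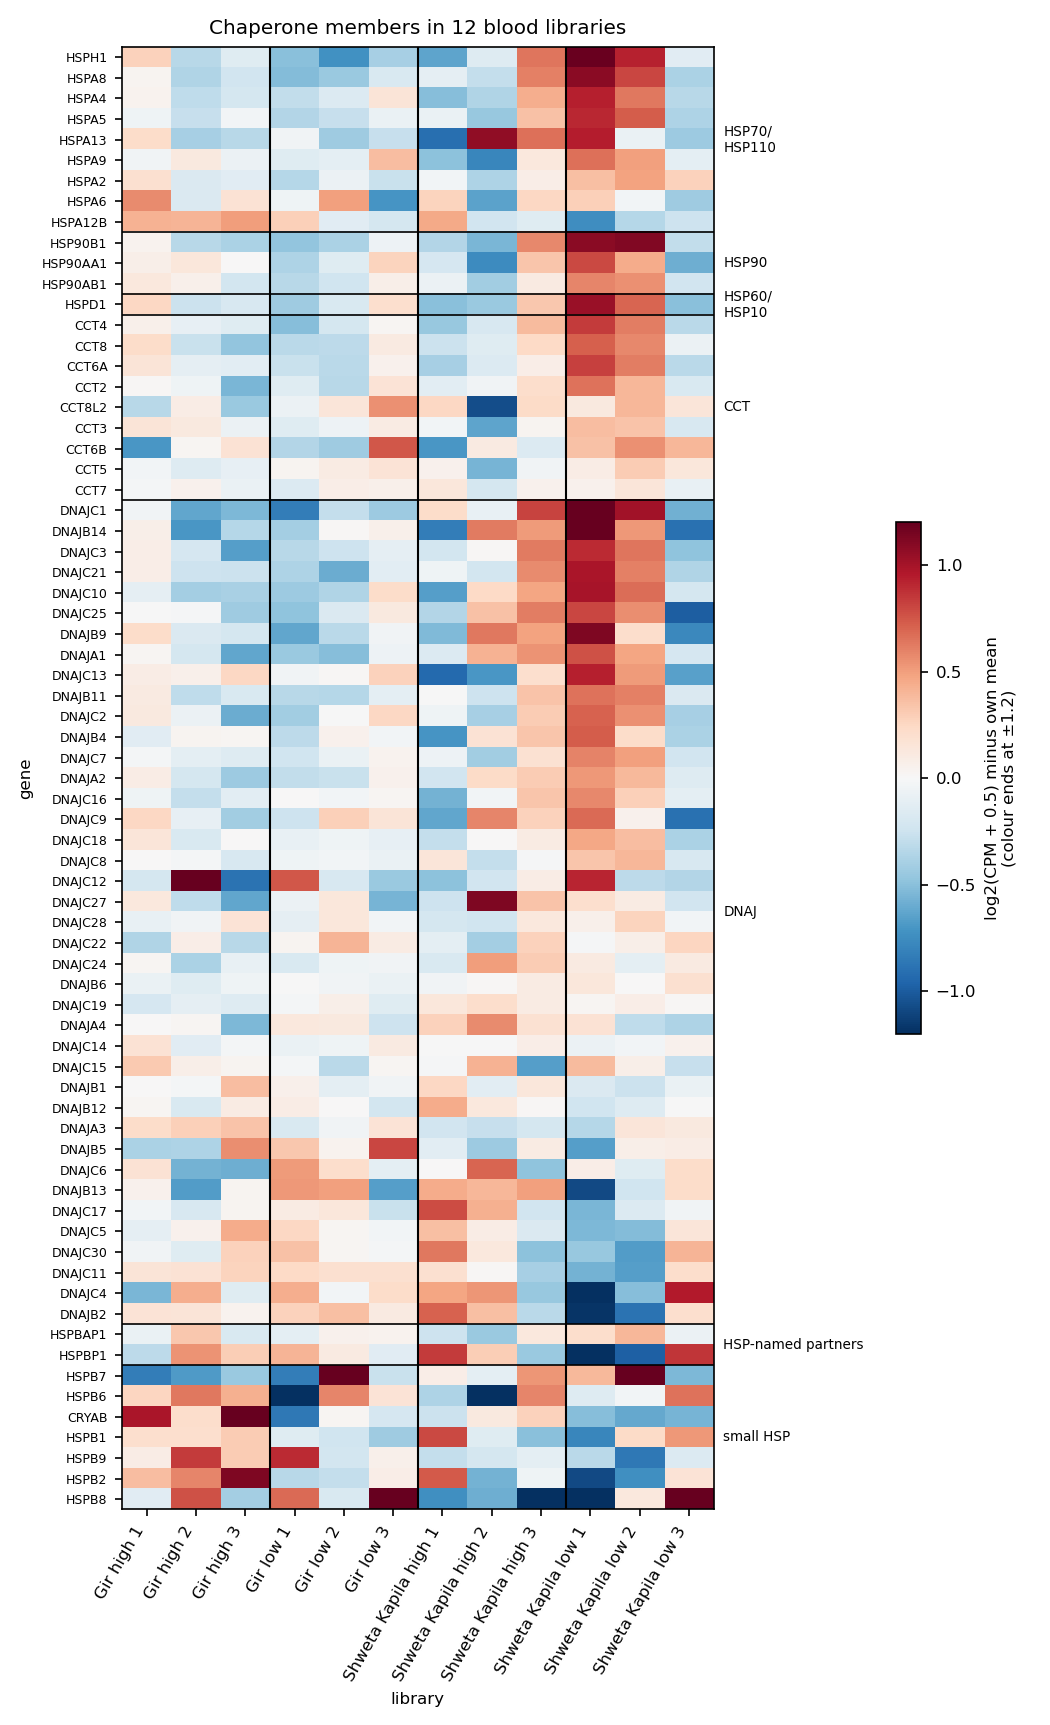
Each row is one of the 71 chaperone genes past the filter and each column a library, and the colour is the log2 value (CPM + 0.5) minus the gene's own mean over 12 libraries, cut at ±1.2. Rows are ordered within a family by their mean in the 3 largest libraries, where most HSP70, HSP90, HSP60 and CCT genes are red and a smaller block of DNAJ genes is blue.

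HSPA8 (gene identifier 109569622) was the member with most reads. Its level was 1921, 1465 and 1605 CPM in Gir high, 1310, 1383 and 1658 CPM in Gir low, 1746, 1544 and 2859 CPM in Shweta Kapila high, and 3985, 3273 and 1444 CPM in Shweta Kapila low cows. The 3 largest libraries were the 3 highest and averaged 3373 CPM, 2.16 times the mean of the other 9 (1564 CPM). Shweta Kapila low 3 lay among the other 9, so the low-yielding Shweta Kapila group was split. The endoplasmic reticulum HSP70, HSPA5 (109566467), also called BiP, showed the same order with 314 to 462 CPM in the 3 largest libraries and 180 to 241 CPM in the rest. HSPH1, an HSP110 that works as an exchange factor for HSP70, had 66.4, 96.4 and 80.4 CPM in the 3 largest libraries, and the highest other value was 51.1 CPM in Gir high 1. HSPA4, another HSP110, had 158 to 223 CPM there against 81.9 to 130 CPM.

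HSP90B1 (109559454), the HSP90 of the endoplasmic reticulum also called GRP94, had the widest gap among the HSP90 genes. It was at 717, 1016 and 1037 CPM in the 3 largest libraries and at 329 to 493 CPM in the other 9. The stress-inducible cytosolic HSP90AA1 was at 1118, 1537 and 1209 CPM against 526 to 1064 CPM. Its constitutive partner HSP90AB1 did not separate fully, since Shweta Kapila high 3 (1038 CPM) lay below Gir high 1 (1054 CPM). HSPD1 (109569043), the mitochondrial HSP60, had 230, 378 and 298 CPM against 130 to 218 CPM.

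All 9 CCT genes were above their own mean over the 12 libraries in Shweta Kapila low 1, low 2 and Gir low 3, and 7 of 9 were in Shweta Kapila high 3, but they differed in how far they moved. CCT4 was at 246, 338 and 290 CPM in the 3 largest libraries and at 132 to 198 CPM in the others, and CCT2 and CCT8 also had these libraries on top. CCT7, a subunit of the same ring, stayed between 159 and 204 CPM in all 12 libraries, and CCT5 stayed between 81.7 and 148 CPM. For CCT3 the highest values were in Shweta Kapila low 1 (274 CPM) and low 2 (268 CPM), with Gir high 1 next at 236 CPM. CCT6A was also highest in these 2 cows, at 152 and 131 CPM, and at 64.7 to 95.4 CPM in the other 10. The remaining CCT genes, CCT6B and CCT8L2, had few reads, at most 0.860 and 9.32 CPM. CCT6B passed the filter on low counts only through low-yielding cows.

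**Figure D2:**
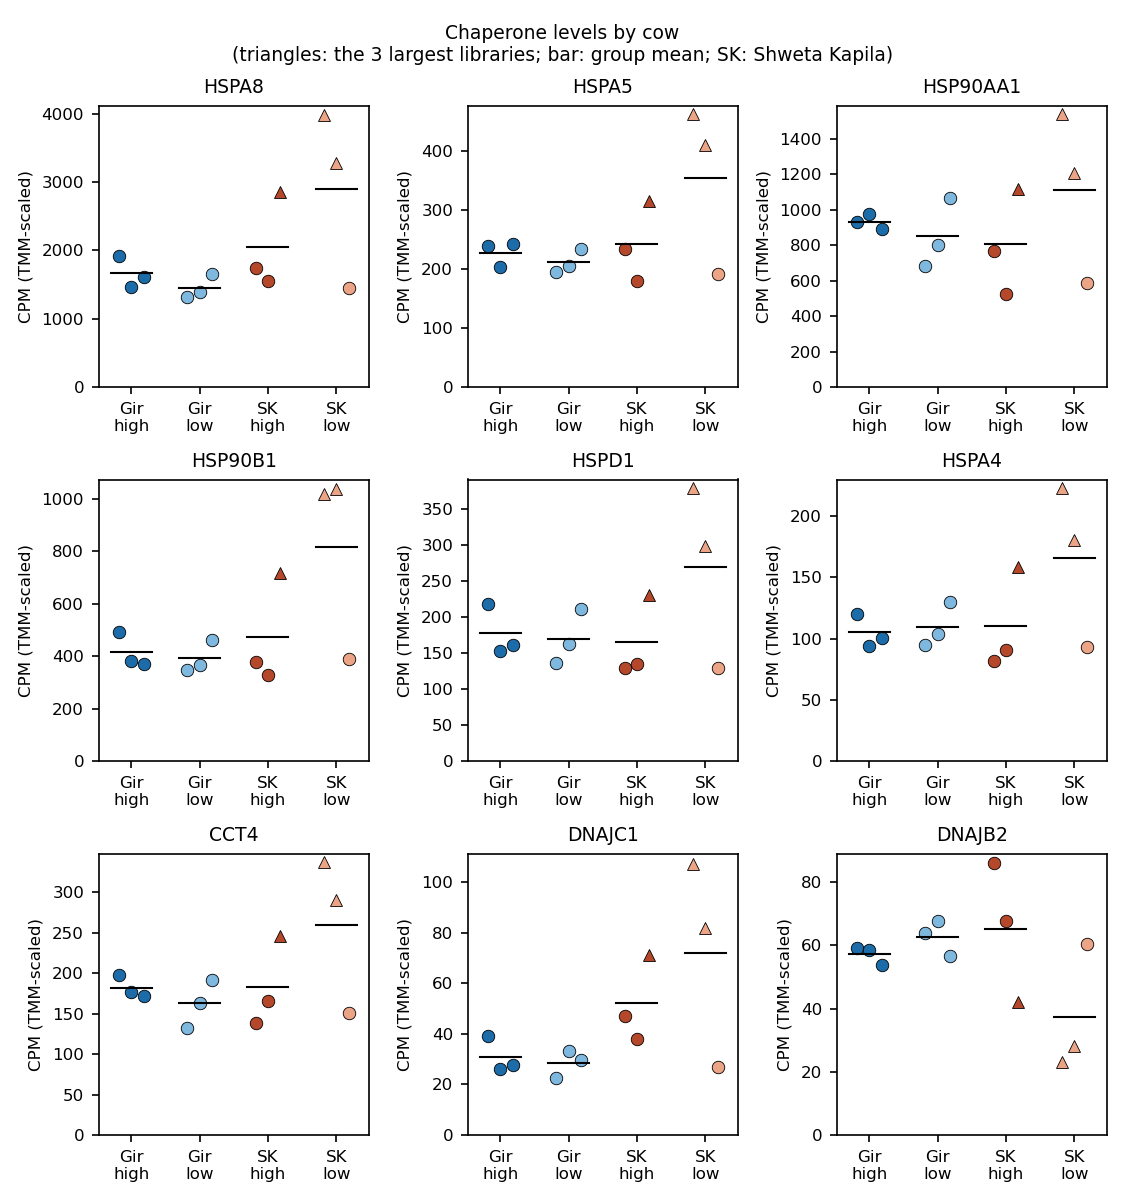
TMM-scaled CPM of 9 chaperone genes in each cow by group, with a bar at the group mean of 3 cows and triangles for the 3 largest libraries. In the first 8 panels the triangles are above all circles, in the DNAJB2 panel they are below all circles, and the only circle of the low-yielding Shweta Kapila group lies close to circles of other groups.

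Counted over all members past the filter, the 3 largest libraries were the 3 highest for 22 of 71 genes (31.0%), beside 11.1% of all genes. They were the 3 lowest for 5 of 71 (7.04%), beside 13.7% of all genes. By family the first count was 4 of 9 HSP70 and HSP110 genes, 2 of 3 HSP90, HSPD1, 3 of 9 CCT, 12 of 40 DNAJ and 0 of 7 small HSP genes. By compartment it was 7 of 12 genes of the endoplasmic reticulum (58.3%), 13 of 41 of the cytosol and nucleus (31.7%) and 1 of 7 of the mitochondrion (14.3%). The 5 with lowest values there were DNAJB2, a ubiquitin-binding co-chaperone, DNAJC5, the cysteine string protein of vesicles, the mitochondrial DNAJC11 and DNAJC30, and the exchange factor HSPBP1. DNAJB2 was at 42.0, 23.0 and 28.2 CPM in the 3 largest libraries and at 54.0 to 86.0 CPM elsewhere. HSPBP1 was at 6.16, 2.76 and 4.09 CPM against 6.79 to 15.9 CPM. These libraries hold 2 of 3 low-yielding and 1 of 3 high-yielding Shweta Kapila cows and no Gir cow, and the part of depth or of the short identifiers in these levels was not tested.

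No chaperone gene passed an adjusted p of 0.05 in any of the 5 comparisons with edgeR's quasi-likelihood test and Benjamini-Hochberg adjustment over 15420 genes. The background was the same, since 0% of all genes (0 of 15420) passed in each comparison. In simulated counts for the Shweta Kapila comparison, 0% of genes changed by a log2 of 1 were called. The absence of calls therefore does not show that levels were equal. High yielders were set against low yielders within each breed, the 2 yield differences were averaged and subtracted, and Gir was set against Shweta Kapila, so that the comparisons reuse the same 12 libraries. DESeq2 also called 0 members in each. The limma-voom test with sample weights called 0 of 71 members in Gir, beside 1 of 15420 genes. In Shweta Kapila it called 29 of 71 members, beside 3898 of 15420 genes. For the yield mean it called 6 of 71, beside 1256 of 15420, a share near that of all genes. For the difference between breeds it called 12 of 71, beside 1308 of 15420, and for breed 20 of 71, beside 2558 of 15420. In that fit Shweta Kapila low 2 had a weight of 6.62 and Shweta Kapila low 3 a weight of 0.184, so the low-yielding group was read mainly from the former.

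In Gir cows most differences between high and low yielders were small, with family medians from −0.01 (CCT and DNAJ) to 0.20 (HSP70 and HSP110) and 0.47 for the small HSP genes. The log2 fold changes of the 71 members had a median of 0.02, beside −0.02 for all genes, and 39 of 71 were higher in high yielders, beside 47.4% of all genes. At an unadjusted p under 0.05 there were 2 members, CRYAB higher and HSPB7 lower, which is 2.82% beside 1.89% of all genes, and without any one library there were 1 or 2. The groups did not overlap for 7 members with higher values in high yielders (9.86%, beside 5.12% of all genes) and for 2 with lower values (2.82%, beside 5.06%). The 7 were CRYAB, HSPB1, HSPB2, HSPA12B, HSPH1 and the mitochondrial DNAJA3 and DNAJC15, and the 2 were CCT5 and DNAJC16. CRYAB and HSPB2 would not have passed the filter on low-yielding cows alone. The 9.86%, and the share of members at an unadjusted p under 0.05, are therefore set in part by the filter. HSPB1, the small HSP with most reads, was at 202, 202 and 216 CPM in high and at 158, 148 and 130 CPM in low yielders. HSPH1 was at 51.1, 33.5 and 38.2 CPM in high and at 29.7, 25.3 and 32.0 CPM in low yielders. DNAJC6, the auxilin that uncoats clathrin vesicles, and DNAJC22 were the next members by p among those lower in high yielders, with log2 fold changes of −0.98 ± 0.69 and −0.70 ± 0.53 (SE), and both were at no more than 1.02 CPM in the Gir libraries. The value of DNAJC6 was −1.77 without Gir high 1.

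In Shweta Kapila cows the high-yielding group had lower mean levels of most chaperones, but the 2 groups overlapped for all but 9 of the 71 members. The median log2 fold change of the 71 members was −0.25, beside −0.02 for all genes, and 47 of 71 were lower in high yielders, beside 51.7% of all genes. At an unadjusted p under 0.05 there were 4 members (5.63%), beside 6.98% of all genes. These were HSPA9 lower and DNAJB2, CRYAB and DNAJC17 higher, of which CRYAB passed the filter only through high-yielding cows. The count depended on single libraries, as the share of all genes did. It was 31 without Shweta Kapila low 3, beside 31.7% of all genes, 13 without Shweta Kapila high 3, beside 18.8%, and 0 without Shweta Kapila low 2, beside 3.76%, and without any other single library it was between 1 and 3. The family medians were −0.50 for HSP70 and HSP110, −0.47 for HSP90 (3 of 3 lower) and −0.38 for CCT (9 of 9 lower). The DNAJ median was −0.11 (24 of 40 lower) and the small HSP median 0.07. The 9 CCT genes include CCT6B, which passed the filter only through low-yielding cows. HSPD1 had −0.70 ± 0.37 (SE), with high yielders at 130, 135 and 230 CPM and low yielders at 378, 298 and 130 CPM. Shweta Kapila high 3 lay inside the range of the low yielders, and Shweta Kapila low 3 was level with the 2 lower high yielders.

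HSPA9 (109562068), the mitochondrial HSP70 that pulls proteins through the inner membrane, had the lowest p among the members lower in high-yielding Shweta Kapila cows. Its level was 121, 99.1 and 186 CPM in high and 270, 239 and 157 CPM in low yielders, which overlap, with a log2 fold change of −0.71 ± 0.28 (SE) and an adjusted p of 0.655 with edgeR. In Gir it was at 165, 186 and 162 CPM in high and 154, 157 and 221 CPM in low yielders. CCT6A followed with −0.60 ± 0.28 and DNAJC13, an endosomal DNAJ protein, with −0.80 ± 0.37. CCT5 did not overlap in either breed, with 118, 108 and 112 CPM in high against 123, 129 and 134 CPM in low Gir cows, and 125, 81.7 and 117 CPM against 128, 148 and 132 CPM in Shweta Kapila cows. The CCT5 differences were small, and the log2 fold change in Shweta Kapila was −0.34 ± 0.20 (SE, adjusted p 0.655 with edgeR). How many of all genes lack overlap in both breeds was not counted. On the other side, DNAJB2 had 0.81 ± 0.35 and DNAJC17, a nuclear DNAJ protein of the splicing machinery, had 0.64 ± 0.30. In Shweta Kapila cows the groups did not overlap for 6 members with higher values in high yielders (8.45%, beside 3.51% of all genes) and 3 with lower values (4.23%, beside 3.70%). The 6 were CRYAB, HSPA12B, DNAJA4, DNAJB12, DNAJB13 and DNAJC19, and the 3 were CCT5, CCT6B and HSPA2. CCT6B passed the filter only through low-yielding cows, and CRYAB only through high-yielding cows. Their lack of overlap is counted in these shares but is no support for a yield difference.

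Without the 3 largest libraries, Shweta Kapila low 3 was the only low-yielding cow of its breed. The spread of its group was assumed to be like that of the other groups. The Shweta Kapila median then became 0.07, beside 0.04 for all genes, and 42 of 71 members were higher in high yielders. The family medians became 0.11 for HSP70 and HSP110, −0.01 for HSP90, −0.12 for CCT and 0.17 for DNAJ. HSPA8 moved from −0.50 to 0.19, HSPA5 from −0.55 to 0.11, HSP90AA1 from −0.47 to 0.13 and HSPD1 from −0.70 to 0.03. With the share of short identifiers as a covariate the median over members was 0.09, beside 0.02 for all genes. Single libraries moved these values in both directions. Without Shweta Kapila low 1, HSPA8 was at −0.22, HSPD1 at −0.39, DNAJC13 at −0.45 and CCT6A at −0.38, and without Shweta Kapila low 3 HSPA8 was at −0.82 and DNAJB2 at 1.35. Without Shweta Kapila high 3 HSPA8 was at −0.82, without high 2 CCT5 was at −0.17, and without high 1 DNAJC17 was at 0.39. Blood cell markers also differed between these groups. Summed T cell markers were at 4040 to 5541 CPM in high and 2410 to 3576 CPM in low yielders, summed cytotoxic markers (7 of 9 listed) at 1020 to 1768 and 381 to 1103 CPM, and summed B cell markers (7 of 8) at 576 to 695 and 617 to 2444 CPM. In the 3 largest libraries T cell markers were at 3123 to 4040 CPM, inside the range of the other 9. B cell markers were at 576 to 1016 CPM there, with Shweta Kapila high 3 and low 1 below the other 9 (670 to 2444 CPM), and platelet markers at 279 to 468 CPM, with Shweta Kapila low 1 below the other 9 (310 to 567 CPM). Eosinophil and basophil markers were at 106 to 231 CPM, with Shweta Kapila high 3 above the other 9 (93.4 to 208 CPM), and the other 4 marker lists lay inside the range of the other 9. The part of cell mixture in the chaperone levels was not tested.

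**Figure D3:**
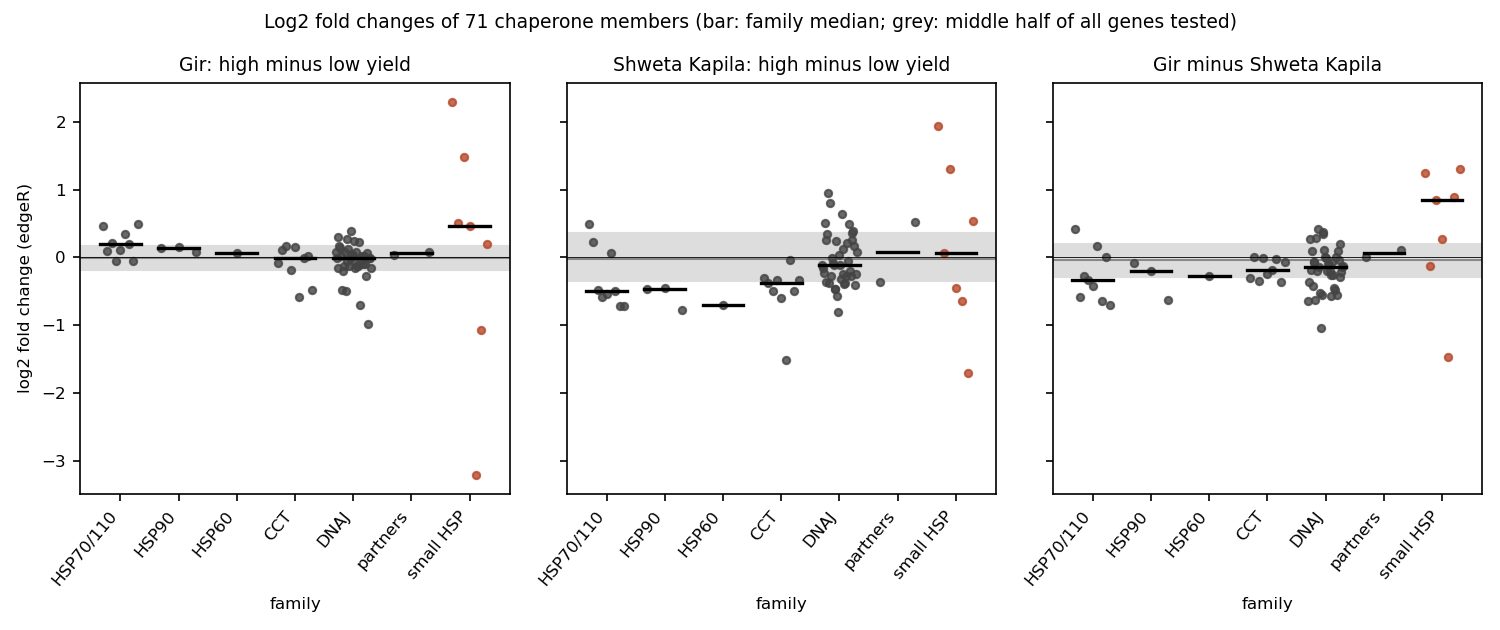
Log2 fold changes of the 71 members by family in 3 comparisons, with a bar at each family median and a grey band for the middle 50% of all genes tested. Most family medians lie near 0 in Gir, with the small HSP median at 0.47. The HSP70, HSP90, HSP60 and CCT medians lie below the band in Shweta Kapila, and small HSP genes (red) spread widest in all 3 panels.

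Averaged over both breeds, the yield difference had a median of −0.10 over the 71 members, beside −0.01 for all genes, and 3 members were at an unadjusted p under 0.05 (4.23%, beside 4.13%). These were CRYAB and HSPA12B, higher in high yielders, and HSPB8, lower, of which CRYAB passed the filter only through high-yielding cows. The count was 15 without Shweta Kapila low 3, beside 20.7% of all genes, and 6 without Shweta Kapila high 3, beside 9.89%. The difference between breeds in the yield effect was called for 0 members, and 1 member was at an unadjusted p under 0.05 (1.41%, beside 3.81%). That member was HSPH1, with a difference of log2 fold changes, Gir minus Shweta Kapila, of 1.21 ± 0.53 (SE, adjusted p 0.955 with edgeR). Without Shweta Kapila low 3 there were 19 such members, beside 19.1% of all genes, without Shweta Kapila high 3 there were 8, beside 9.70%, and without any other single library there were 0 to 2. HSPA2 followed with 0.69 ± 0.34 and CCT6A with 0.76 ± 0.39. On the opposite side were DNAJB2 at −0.94 ± 0.49 (−1.48 without Shweta Kapila low 3), DNAJB13 at −1.43 ± 0.79 and DNAJA4 at −0.67 ± 0.38.

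CRYAB (109569661), the small HSP αB-crystallin of lens and muscle, passed the filter on low counts only through high-yielding cows, with at most 7.625 counts in a low-yielding cow. It was at 1.28, 0.543 and 1.86 CPM in Gir high, 0, 0.420 and 0.287 CPM in Gir low, 0.253, 0.480 and 0.598 CPM in Shweta Kapila high, and 0.133, 0.0920 and 0.114 CPM in Shweta Kapila low cows. High and low yielders did not overlap in either breed, but the filter kept CRYAB only because high yielders had more reads. The lack of overlap and the ratios are therefore no support for a yield difference. The CRYAB levels rest on few reads, with 68 against 14 counts in Gir and 29 against 7 in Shweta Kapila. After scaling, the ratio of high to low was 4.83 in Gir (exact 95% interval 2.69 to 9.31) and 4.17 in Shweta Kapila (1.79 to 11.3), for counting error only. The fitted log2 fold change was 2.12 ± 0.59 (SE) over both breeds, with an adjusted p of 0.874 in edgeR, 2.30 ± 0.80 in Gir and 1.93 ± 0.87 in Shweta Kapila. It kept its direction under all 21 alternatives, between 1.86 and 2.43 over both breeds when a library was left out.

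HSPB2 (109568791), a small HSP of muscle, is the next coding gene to CRYAB in the RefSeq order of this species. Its levels were 0.871, 1.09 and 1.81 CPM in Gir high and 0.339, 0.367 and 0.621 CPM in Gir low cows, which do not overlap. In Shweta Kapila they were 1.27, 0.213 and 0.523 CPM in high and 0, 0.138 and 0.685 CPM in low yielders, which overlap. Its fitted log2 fold change over both breeds was 1.39 ± 0.67 (SE), and it was 2.31 without Shweta Kapila low 3 and 0.775 without the 3 largest libraries. Counts were 70 against 25 in Gir and 38 against 15 in Shweta Kapila. Low-yielding cows alone had too few reads of HSPB2 for it to pass the filter. Its lack of overlap in Gir and its fold changes are therefore no support for a yield difference. Whether the counting used strand is not given in the sources used here, so reads of overlapping transcripts of these neighbours may have been shared between them.

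HSPA12B, a distant relative of HSP70, was the other member without overlap in both breeds in the higher direction. It was at 43.2, 42.8 and 45.8 CPM in Gir high, 39.2, 29.2 and 27.8 CPM in Gir low, 44.2, 27.2 and 28.9 CPM in Shweta Kapila high, and 18.9, 25.2 and 26.9 CPM in Shweta Kapila low cows. Gir high cows were nearly alike, and in Shweta Kapila the lowest high yielder and the highest low yielder were almost level. The log2 fold change over both breeds was 0.48 ± 0.18 (SE, adjusted p 0.874 with edgeR). Apart from CRYAB and HSPA12B, no member was without overlap in the higher direction in both breeds, and none was without overlap in opposite directions. The share of all genes without overlap in both breeds was not counted, so these counts have no background and nothing is concluded from them.

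HSPB7 and HSPB8 each had their 2 highest values in 1 cow of either low-yielding group. HSPB7 had 36 of its 41 counts among low-yielding Gir cows in Gir low 2, and its log2 fold change of −3.21 ± 1.42 (SE) in Gir moved to −0.81 without that library. HSPB8, which works with BAG3 in clearing misfolded proteins, was at 18.6 CPM in Gir low 3 and 14.3 CPM in Shweta Kapila low 3 and between 0.711 and 7.17 CPM in the other 10 libraries. Its log2 fold change over both breeds was −1.39 ± 0.60 (SE, adjusted p 0.874 with edgeR), and it was −0.73 without Shweta Kapila low 3. HSPB6, a small HSP of smooth muscle, was between 0.640 and 4.74 CPM, with values of this range in both yield classes. HSPB9 was at 0.420 to 1.49 CPM in the 6 Gir cows and at 0.0920 to 0.486 CPM in the 6 Shweta Kapila cows, so the breeds overlapped slightly. It passed the filter only through Gir cows, so its breed difference is no support for higher levels in Gir.

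**Figure D4:**
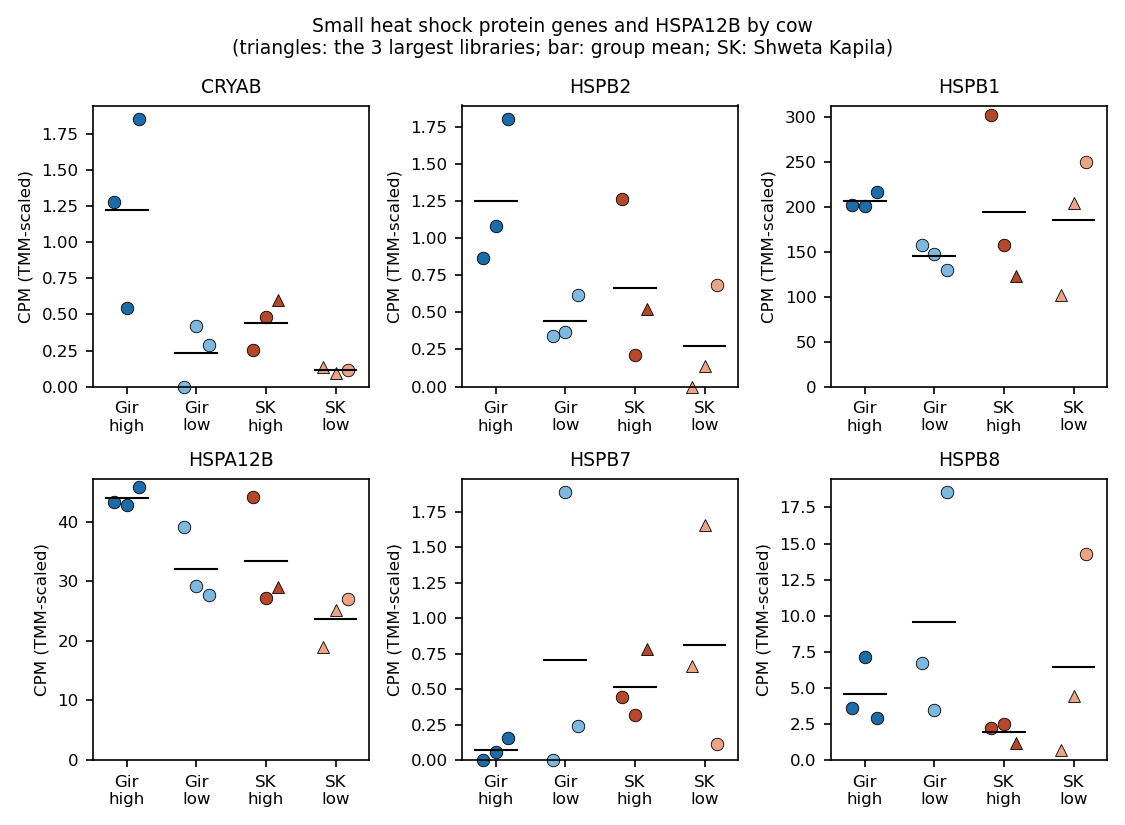
TMM-scaled CPM of 5 small HSP genes and HSPA12B in each cow by group, with a bar at the group mean of 3 cows and triangles for the 3 largest libraries. CRYAB and HSPA12B have high yielders above low yielders within each breed, while HSPB7 and HSPB8 group means are set by 1 or 2 cows. CRYAB passed the filter only through high yielders.

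Between breeds, Gir cows had lower mean levels of most chaperones than Shweta Kapila cows, without a call. The median log2 fold change, Gir minus Shweta Kapila, was −0.14 over the 71 members and −0.04 over all genes, and 49 of 71 members were lower in Gir, beside 54.9% of all genes. At an unadjusted p under 0.05, 9 of 71 members were lower in Gir, beside 5.79% of all genes, and 2 of 71 were higher, beside 3.78%. In both directions together these are 15.5% of members, beside 9.57% of all genes. Single libraries moved the count of 9. It was 2 without any one of Gir high 2, Shweta Kapila high 3, low 1 or low 2, beside 3.85% to 5.32% of all genes. It was 4 without Gir high 3 or Gir low 1, beside 3.94% and 4.65%, and 5 without Gir low 2, beside 4.82%. It rose to 11 without Gir high 1, beside 5.95%, and to 13 without Shweta Kapila high 1, beside 7.4%. Without Shweta Kapila low 3 it was 22, beside 13.1% of all genes. Both breeds overlapped for every member past the filter (0 of 71 without overlap, beside 0.266% of all genes higher in Gir and 0.337% lower). The lowest p was that of DNAJC1 (109567936), a membrane DNAJ protein of the endoplasmic reticulum. It was at 39.2, 26.1 and 27.7 CPM in Gir high, 22.6, 33.0 and 29.7 CPM in Gir low, 47.2, 37.9 and 71.2 CPM in Shweta Kapila high, and 107, 81.7 and 27.0 CPM in Shweta Kapila low cows. Shweta Kapila low 3 lay inside the range of the Gir cows, Shweta Kapila high 2 lay just under Gir high 1, and the log2 fold change was −1.04 ± 0.30 (SE, adjusted p 0.316 with edgeR).

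The cytosolic HSP70 partner DNAJA1 came next in this direction, at 59.2 to 92.7 CPM in Gir and 79.6 to 156 CPM in Shweta Kapila cows (log2 fold change −0.64 ± 0.21, SE). HSPH1 had −0.70 ± 0.26 and HSPA8 −0.65 ± 0.25, both with an adjusted p of 0.431 in edgeR. In the other direction stood HSPB9 at 1.30 ± 0.47, HSPA12B at 0.41 ± 0.18 and CRYAB at 1.25 ± 0.59. HSPB9 passed the filter only through Gir cows, and CRYAB only through high-yielding cows. Without Shweta Kapila low 3, the cow of its group with the small library, 3 of 71 members were called, DNAJA1, DNAJC1 and HSPA8. All 3 were lower in Gir, and 447 of 15755 genes were called in either direction. Without the 3 largest libraries the median over the 71 members was 0.07, beside 0.01 for all genes. HSPA8 was then at 0.02, HSP90B1 at 0.13 and HSPD1 at 0.42.

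By compartment, the breed difference was widest for the endoplasmic reticulum. Of its 12 members, 11 were lower in Gir, with a median log2 fold change of −0.54, and 5 of 12 (41.7%) were at an unadjusted p under 0.05, beside 9.57% of all genes. That count was 1 of 12 with library totals as the only scaling, with the replicate block and with log2 total count as a covariate. It was also 1 without Gir high 2 or 3, or Gir low 1 or 2. The same held without Shweta Kapila high 3, low 1 or low 2. In those fits 6.54% to 13.5% of all genes were at an unadjusted p under 0.05. Without Shweta Kapila low 3 the count was 9 of 12, beside 26.5% of all genes. The 5 were HSP90B1, DNAJC1, DNAJB11, a partner of BiP, DNAJC10, which reduces disulfides of misfolded proteins, and DNAJC3, an inhibitor of the stress kinase PERK. DNAJB11 was at 40.7 to 55.8 CPM in Gir and 43.2 to 81.6 CPM in Shweta Kapila cows, and DNAJC3 at 54.7 to 91.9 and 61.9 to 162 CPM. DNAJB9, a BiP partner induced by unfolded proteins, was at 13.8 to 25.1 CPM in Gir and 12.4 to 47.1 CPM in Shweta Kapila cows, with Shweta Kapila cows at both ends. The members of the cytosol and nucleus had a median of −0.14 (29 of 41 lower) and those of the mitochondrion 0.01 (3 of 7 lower). Whether these medians differ between compartments was not tested. Without the 3 largest libraries 6 of the 12 endoplasmic reticulum members were lower in Gir, with a median of 0.03, and 0 were at an unadjusted p under 0.05.

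Averaged over its 12 members on the log2 scale, the endoplasmic reticulum set was 0.44, 0.81 and 0.46 above its mean over all cows in Shweta Kapila high 3, low 1 and low 2. Shweta Kapila high 2 was 0.11 above it, and Shweta Kapila high 1 and low 3 were 0.30 and 0.36 below. The 6 Gir cows ranged from 0.34 below to 0.06 above. The average of the 41 members of the cytosol and nucleus ranged from 0.20 below to 0.18 above, with members that moved in opposite directions. Their median deviation was 0.186, 0.374 and 0.305 in Shweta Kapila high 3, low 1 and low 2. In these libraries 32, 29 and 28 of the 41 were above their own mean. The average of the 7 members of the mitochondrion ranged from 0.18 below to 0.11 above. Within the mitochondrion, HSPD1 and HSPA9 were highest in Shweta Kapila low 1, while DNAJC11 and DNAJC30 had their 3 lowest values in the 3 largest libraries.

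**Figure D5:**
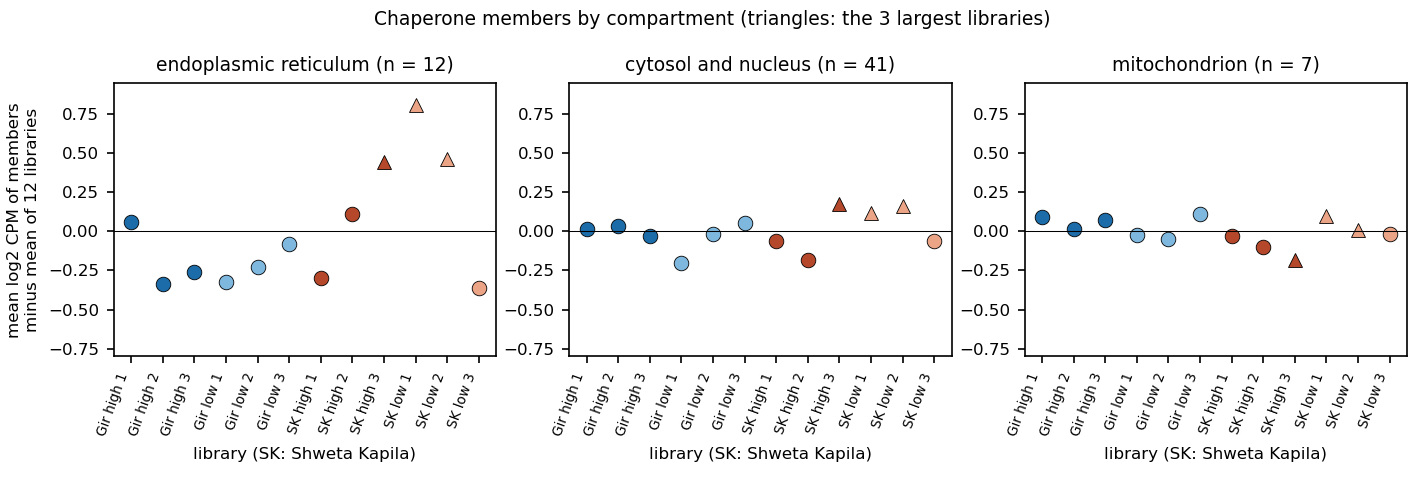
Mean log2 CPM of the members of each compartment in each library, minus the mean over 12 libraries, with triangles for the 3 largest libraries. The endoplasmic reticulum set is at 0.44 to 0.81 in those libraries and at or below 0.11 in the other 9. The averages of the other 2 sets, whose members moved in both directions, stay within 0.20 of their mean.

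Other genes of the chaperone network were read from lists of partners, and 0 of them passed an adjusted p of 0.05 in any comparison. Of 22 co-chaperones of HSP70 and HSP90 past the filter, 15 had lower values in the high yielders of Shweta Kapila, beside 51.7% of all genes. Their median log2 fold change was −0.29, beside −0.02 for all genes. Only 1 of the 22, PPID, a cyclophilin bound to HSP90, was at an unadjusted p under 0.05, beside 6.98% of all genes. It was at 39.8, 38.2 and 48.1 CPM in high and 70.4, 64.8 and 45.3 CPM in low yielders, which overlap. Prefoldin and other CCT helpers went the opposite way in that comparison, with 6 of 8 higher, beside 48.3% of all genes, and a median of 0.29. The CCT genes were lower in 9 of 9, with CCT6B past the filter only through low-yielding cows. Of 9 partners in the endoplasmic reticulum, 5 were higher and 4 lower in high-yielding Shweta Kapila cows, with a median of 0.10. PDIA6, a disulfide isomerase, was lower at 150, 97.2 and 155 CPM against 208, 233 and 176 CPM, without overlap (3.70% of all genes). SDF2 was higher at 94.8, 66.1 and 49.3 CPM against 41.0, 40.2 and 48.3 CPM, also without overlap (3.51% of all genes), though the nearest cows were almost level. Among 6 heat shock factors and their regulators, HSF1, the main activator of heat shock genes, was at 32.0 to 48.0 CPM in Gir and 23.4 to 64.8 CPM in Shweta Kapila cows, with its 2 lowest values in Shweta Kapila low 1 and low 2, where HSPA8 was highest. HSF2, a related factor, had its 2 highest values, 22.2 and 20.6 CPM, in the same 2 cows. Of 9 mitochondrial partners, 4 were higher and 5 lower in high-yielding Shweta Kapila cows, with a median of −0.04.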

How the data were processed

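The authors deposited expected counts for each gene. At a tolerance of 1e-06, 57% of the values are fractional, and the column totals differ, so no scaling by the authors is visible. The submitters' processing notes name Trimmomatic and FastQC and give no version. For the aligner, counter, strand setting, build and annotation, the entry is "not given in the sources used here". Identifiers were matched to symbols of the RefSeq annotation of NIAB-ARS_B.indTharparkar_mat_pri_1.0, for 22754 of 26229 (86.8%). Sequences and coding lengths that had been planned were not used here, and genes are not compared in level.

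After rounding, edgeR 4.0.16 (R 4.3.3) was run with filterByExpr (minimum count 10, minimum total 15), TMM scaling, and a robust quasi-likelihood fit of 4 group means over all 12 libraries (common biological coefficient of variation 0.381), 2-sided, at a false discovery rate of 0.05. Spread here is that between cows. Levels are TMM-scaled CPM. DESeq2 1.42.0 and limma 3.58.1 were alternatives, beside other scalings, no filter, the replicate block, covariates, and left-out libraries. The edgeR script was tested on simulated counts for the Shweta Kapila comparison. It called 0% of the genes changed by a log2 of 1, 58.9% at a log2 of 2 and 84.7% at a log2 of 3. Python 3.11.15 and matplotlib 3.10.9 drew the plots.

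Members, families, compartments, marker lists and partner lists were chosen with earlier results of these data known. Named are, in each comparison, the 3 members of lowest p in each direction, the 2 of most reads in each family, a list of core chaperones, the members under the filter, and some chosen for their spread, their libraries or their overlap after the values were seen. Compartments were assigned by hand.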

Additional observations from a re-analysis of the deposited data

How the results depend on the processing

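Of 58 reported log2 fold changes, 36 kept their direction under all 21 alternatives, and 1188 of 1218 values kept it in all. The other scalings, no filter, both covariates, DESeq2 and the fit without the 3 largest libraries called 0 members in the 5 comparisons, while over all genes DESeq2 called 1, 61, 4, 9 and 195 and log2 total count as a covariate up to 53. With limma-voom and sample weights 29 of 71 members were called in Shweta Kapila, beside 3898 of 15420 genes. It called 6 of 71 for the mean, beside 1256 of 15420, and 12 of 71 for the difference between breeds, beside 1308 of 15420. For breed it called 20 of 71, beside 2558 of 15420. Leaving out a library gave 0 members called in each yield comparison and 0 to 3 for breed.

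The median over members ran, when a library was left out, from −0.374 to −0.108 in Shweta Kapila (main −0.252), from 0.0604 to 0.413 for the difference between breeds (0.228), from −0.211 to −0.0245 for the mean, from −0.0485 to 0.0776 in Gir and from −0.21 to −0.11 for breed. The ends of the first 2 ranges came from Shweta Kapila low 1 and low 3. With the short identifiers' share as a covariate it was 0.0932 in Shweta Kapila, 0.0581 for the mean and −0.0944 for the difference. Without the 3 largest libraries it was 0.0734, 0.0464 and 0.00201, and 0.0719 for breed. The cause was not tested.

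In Shweta Kapila these log2 fold changes turned positive with the share as a covariate: CCT2 0.0932, CCT4 0.144, DNAJC13 0.076, HSP90AA1 0.296, HSP90B1 0.0542, HSPA4 0.128, HSPA5 0.15, HSPA8 0.3, HSPD1 0.152 and HSPH1 0.0412. Without the 3 largest libraries those of CCT2 (0.103), CCT4 (0.00949), CCT6A (0.0531), HSP90AA1 (0.13), HSPA5 (0.109), HSPA8 (0.187) and HSPD1 (0.0311) did. For breed, the same libraries left out turned CCT2 to 0.0102, CCT4 to 0.19, CCT6A to 0.216, DNAJB9 to 0.136, DNAJC3 to 0.0719, HSP90AB1 to 0.162, HSP90B1 to 0.129, HSPA4 to 0.27, HSPA5 to 0.151, HSPA8 to 0.0218 and HSPD1 to 0.415, and log2 total count as a covariate turned HSPA4 to 0.0407 and HSPD1 to 0.13.

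Same-numbered cows did not deviate together (correlations −0.558 to 0.339 over 18 pairs, 3 libraries best with their own number), and with the replicate number as a block 0 members were called in every comparison, with a median of −0.232 in Shweta Kapila.

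CRYAB, HSPB2, HSPB7, HSPB9, CCT6B, DNAJC6 and DNAJC22 had few reads, so counting error adds to the spread between the 3 cows of a group in their values.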
